A study of Mus musculus with 4 samples.

Results

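The genes described here encode the translation initiation and elongation factors of mouse liver, together with the kinases, inhibitors and methyltransferases named after them. They were taken from 2 lists of N6-methyladenosine (m6A) peaks by symbol, every gene beginning with Eif or Eef and a digit except Eif2s3y, and grouped by factor from Eif1 to Eif6, Eef1 and Eef2. Of 9650 genes with a peak, 50 belonged to these families, 44 in each list, with 66 of the 14057 peaks of the FF list and 70 of the 14693 peaks of the HKO list.

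Peaks came from methylated RNA immunoprecipitation sequencing, in which fragments of about 100 nt that an m6A antibody pulls down (IP) are sequenced beside untreated input RNA, and peaks mark exonic stretches where IP reads exceed what the input predicts. FF stands for livers of Alkbh5flox/flox mice and HKO for livers of Alkbh5-HKO mice, taken here as a knockout of Alkbh5, whose product removes m6A. The labels do not spell out HKO or name what drives the deletion. Mice of both genotypes were 9 weeks of age, on normal chow. RNA of 3 mice was pooled for each genotype, which left 1 pool, 1 IP library and 1 input library per genotype, no replicate, and no test between genotypes. Peaks were called by the authors for each genotype against its own input, so every fold enrichment (IP over input) and every q-value given below is the authors' own.

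The lists carry no read totals and no RNA levels, so the depth of the libraries is unknown and a gene without a peak may have been methylated and too thinly covered. Bulk liver RNA was used, in which fewer cells of a type and less RNA per cell cannot be told apart. Alkbh5 itself carried 3 FF peaks and 0 HKO peaks, which is no measure of its RNA. The liver label was looked at through 8 hepatocyte genes (Alb, Apoa1, Apob, Ttr, Cps1, Hnf4a, Cyp2e1 and Fgb), of which 5 had FF peaks and 7 had HKO peaks.

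Translation begins when eIF2 carries the initiator tRNA to the small ribosomal subunit, eIF3 holds the complex together, and eIF4F (the cap-binding protein eIF4E, the scaffold eIF4G and the helicase eIF4A) brings it to the capped end of the mRNA. Factors eIF1 and eIF1A watch over the choice of start codon, eIF5 and eIF5B release the factors and join the large subunit, and eEF1 and eEF2 then bring aminoacyl-tRNA and move the ribosome along. In liver, feeding acts on protein synthesis through mTORC1 and the eIF4E-binding proteins, and stress acts through the kinases of eIF2. In mRNA, m6A lies mostly around stop codons and in 3′ untranslated regions, and antibodies against it also bind m6Am, a modified base beside the cap, so the mark under a peak at a transcript start was not identified here.

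Most translation factor genes carried peaks in both livers, at largely the same places. Peaks in both lists were found on 38 of the 50 genes (76.0%, 95% Wilson interval 62.6 to 85.7), close to the 75.6% among all genes with a peak. The FF list alone held 6 genes (12.0%, 5.62 to 23.8, against 11.2% of all genes), namely Eif1ax, Eif2ak4, Eif2b5, Eif4e3, Eif4g2 and Eef1d. The HKO list alone held another 6 (12.0%, against 13.2% of all genes), namely Eif2s1, Eif3e, Eif3g, Eif3j1, Eif4a1 and Eif4ebp3. Keeping only peaks with a q of 1e-05 or less gave 3 genes for FF alone (Eef1b2, Eef1d and Eif4g2). HKO alone then held 8 genes and both lists 33. Genes of both lists became single-list genes where the limit dropped their peaks in 1 list. Eef1b2 is such a gene, with an HKO peak at log10 q -3.47. Over all genes the same limit gave 706 for FF alone and 1154 for HKO alone, with 5454 in both. More HKO-alone than FF-alone genes were thus seen there too. These intervals, and those below, cover counting error only.

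A peak was called overlapping where its exon blocks shared at least 1 bp with a peak of the other list on the same strand. The strand is the one each list gives. The sources name 2 different library kits, so whether the reads kept their strand is not settled, and a peak inside the span of another gene may hold reads of that gene. Such peaks numbered 7 in FF and 9 in HKO. On translation factor genes, 52 of 66 FF peaks overlapped an HKO peak (78.8%, 67.5 to 86.9), beside 74.8% of all FF peaks. In the other direction 54 of 70 HKO peaks overlapped an FF peak (77.1%, 66.0 to 85.4), beside 71.5% of all HKO peaks. All 38 genes with peaks in both lists had at least 1 overlapping pair, and 6 FF peaks had exactly the limits of an HKO peak. Over these 38 genes, a median of 62.5% of the exonic bases under either list's peaks lay under both. The pairs per gene, equal limits and shared bases were not computed over all genes, so they are not read as particular to these.

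Among 70 protein-coding RefSeq genes whose symbols fit the families, 20 had no peak in either list. The same share over all protein-coding RefSeq genes was not computed, so this count is not read as high or low. They include several core parts of the machinery: Eif1, Eif2s2 and Eif2s3x (the β and γ subunits of eIF2), Eif2b3, the eIF3 subunit genes Eif3d, Eif3f, Eif3i, Eif3k and Eif3m, and Eif5a, whose product helps ribosomes past stalling sequences. Eef2k, the kinase that inhibits eEF2, was also without a peak. The others were Eef1a2, Eef1akmt2, Eef1akmt3, Eef1akmt4-ece2, Eef1e1, Eif4a3, Eif4a3l1, Eif4e1b and Eif5a2. Whether these RNAs were too scarce to give a peak was not tested, since the lists hold no input levels.

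Peaks on translation factor genes had lower fold enrichment and smaller q-values than the lists as a whole. The median fold was 5.52 over the 66 FF peaks (interquartile range 3.17 to 9.76) and 6.54 over the 70 HKO peaks (2.99 to 11.9), while all peaks had medians of 8.80 and 10.4. The median log10 q was -12.1 for FF and -14.8 for HKO, against -7.79 and -8.70 over all peaks. Input coverage of these transcripts is not in the lists, and its part in these values was not tested. Some peaks of different genes had the same fold and log10 q. In FF these were Eif4e3 and Eif2d (16.4 and -3.39), and in HKO Eif3e and an Eef2kmt peak (11.0 and -4.13). Whether such high folds at weak q rest on few reads was not tested, since the lists hold no read counts. Peaks spanning an exon junction made up 24.2% of the FF peaks and 25.7% of the HKO peaks on these genes (17.4% and 13.9% of all peaks). Genes with more than 1 peak made up 36.4% of the 44 with FF peaks and 40.9% of the 44 with HKO peaks, beside 44.1% of all genes in each.

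**Figure D1:**
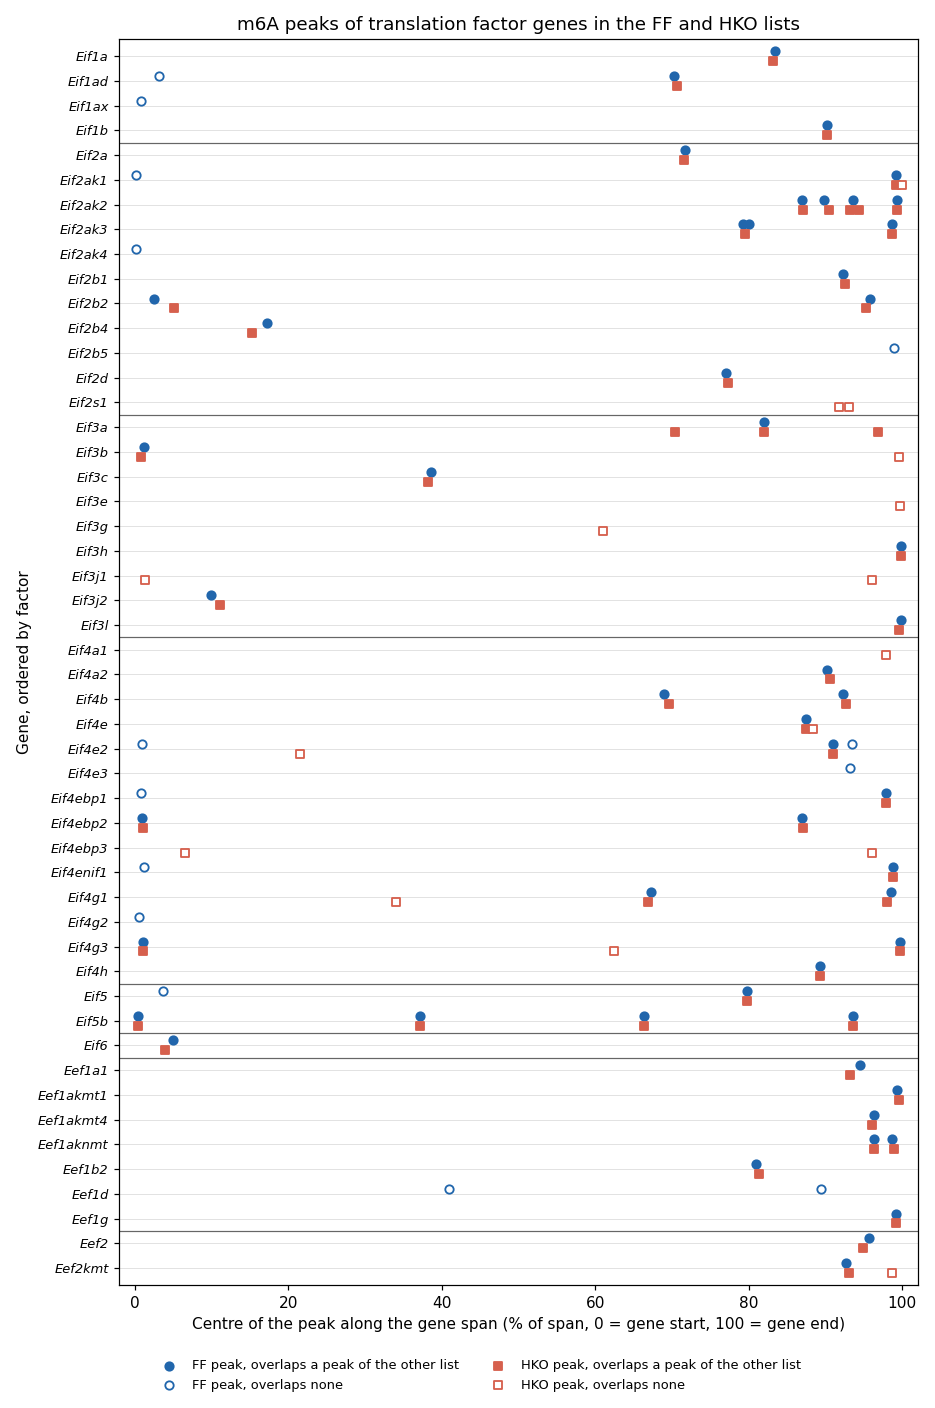
Position of each peak's exonic centre along its gene span (x axis, percent of the span from gene start to gene end) for the 50 genes (y axis). Circles are the 66 FF peaks and squares the 70 HKO peaks, filled where the peak overlapped one of the other list. Most lie towards the gene end, with 56.1% of FF and 64.3% of HKO peaks between 80% and 100% of the span. Over all peaks these shares were 55.0% and 62.5%. Of the 14 open circles, 8 lie within 500 bp of the gene start (57.1%, 95% Wilson interval 32.6 to 78.6). Over all FF peaks without an overlap the share was 34.7%, which lies inside that interval.

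Most peaks lay towards the end of the gene span, which includes introns. The last 20% of the gene span held 56.1% of FF and 64.3% of HKO peaks, near the 55.0% and 62.5% of all peaks. The first 20% held 25.8% and 14.3% (22.0% and 13.3% of all peaks). Gene ends and starts here are those of the whole RefSeq gene span, so an internal promoter or an early polyadenylation site is not seen.

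A start peak was one whose centre lay within 500 bp of the annotated gene start. In the FF list 14 of 66 peaks on translation factor genes were start peaks (21.2%, 13.1 to 32.5, with 15.0% over all FF peaks), and in the HKO list 8 of 70 (11.4%, 5.91 to 21.0, with 7.38% over all HKO peaks). In both lists the share over all peaks lay within these intervals. With a window of 200 bp the shares on these genes were 10.6% and 1.43%. The shares over all peaks were not computed at 200 bp. Of the 14 FF peaks that overlapped no HKO peak, 8 were start peaks (57.1%, 32.6 to 78.6), where all such FF peaks gave 34.7%. Of the 16 HKO peaks that overlapped no FF peak, 2 were start peaks (12.5%, 3.50 to 36.0), where all such HKO peaks gave 4.71%.

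Start peaks in FF with no overlapping HKO peak were found on Eif1ad, Eif1ax, Eif2ak1, Eif2ak4, Eif4e2, Eif4ebp1, Eif4g2 and Eif5. Those in HKO with no FF counterpart were on Eif3j1 and Eif4ebp3. Overlapping start peaks of both lists lay on Eif2b2, Eif3b, Eif3j2, Eif4ebp2, Eif5b and Eif6. These 16 genes span eIF1A-related proteins, eIF2 kinases, an eIF2B subunit, eIF3 and eIF4 components and the subunit-joining factors, and no elongation factor gene is among them.

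Start regions of 6 of these genes are printed below, 50 bases before the RefSeq start and 30 transcribed bases after it (GRCm38.p6, RefSeq, the most upstream start of each gene, all on the plus strand). The first 4 were chosen because the window holds the ETS core motif CCGGAA or its reverse complement TTCCGG, shown in capitals, which is a recognition sequence of ETS family transcription factors; Eif3b and Eif5b hold none and are shown for their start peaks in both lists.
Eif1ad, chr19:5366763-5366842: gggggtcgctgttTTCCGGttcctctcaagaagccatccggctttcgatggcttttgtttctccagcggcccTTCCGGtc
Eif2ak1, chr5:143817742-143817821: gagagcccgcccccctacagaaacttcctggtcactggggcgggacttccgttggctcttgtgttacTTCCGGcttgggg
Eif2b2, chr12:85219431-85219510: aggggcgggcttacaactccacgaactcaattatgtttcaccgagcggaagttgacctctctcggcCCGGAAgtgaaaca
Eif4e2, chr1:87213861-87213940: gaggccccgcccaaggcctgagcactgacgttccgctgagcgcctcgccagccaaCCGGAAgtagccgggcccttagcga
Eif3b, chr5:140419255-140419334: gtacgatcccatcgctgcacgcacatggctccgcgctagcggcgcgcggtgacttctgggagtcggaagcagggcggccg
Eif5b, chr1:37997960-37998039: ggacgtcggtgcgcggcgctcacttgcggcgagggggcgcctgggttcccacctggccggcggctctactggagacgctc

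Such a window was taken for 11 of the 16 start-peak genes, and 4 of the 11 held the motif. Eif3j2 and Eif4ebp3, on chromosome 18, were left out by rule, and the rest of the 16 had no window. The share over all genes was not computed for this short window. In Eif2ak1 the FF start peak began 30 bp after the annotated start, directly after the printed bases, and in Eif3b the peaks of both lists began at the start itself. In a longer window of 300 bases (250 before and 50 after the start), searched on both strands, CCGGAA was present in 18 of the 38 translation factor genes with a window (47.4%), in 27.5% of all genes with a peak, and in 15.2% of all RefSeq genes with a window. The GC box GGGCGG was found in 76.3% (62.1% of genes with a peak, 35.9% of all) and the E-box CACGTG in 21.1% (10.4% and 7.24%). CCAAT was found in 28.9% (38.4% and 38.0%) and TATAAA in 7.89% (7.32% and 14.2%). A C at the start followed by at least 4 pyrimidines, the signature of mRNAs whose translation follows mTORC1, was found in 0 of the 38 windows at the RefSeq start (2.29% of genes with a peak). The annotated base can lie away from the one used in liver. The letters GGAC, a form of the m6A consensus, occurred in the first 50 transcribed bases of 21.1% (20.3% of genes with a peak).

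Start peaks found in both lists were listed with lower folds in HKO. Overlap was one to one within the gene for 48 pairs, meaning that each peak overlapped 1 peak of the same gene in the other list, and 6 of these pairs were at starts. At all 6 the HKO fold was below the FF fold, as it was in 70.3% of start pairs over all genes. Eif5b, the GTPase that joins the ribosomal subunits, was enriched 83.8-fold under the FF peak and 7.25-fold under the HKO peak, and Eif3j2 23.2-fold and 6.57-fold. Eif2b2 followed with 18.0 and 3.88, and Eif3b with 14.0 and 4.85. Eif6, which keeps free large subunits apart from small ones, had 9.40 and 4.91, and Eif4ebp2, an inhibitor of eIF4E, 4.21 and 2.16. The median FF fold of the 6 was 16.0 and the median HKO fold 4.88, with a median HKO over FF ratio of 0.315 (0.555 over all start pairs). The folds come from separate IP reactions, and all pairs share the same 4 libraries, so they give no direction of change in methylation.

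**Figure D2:**
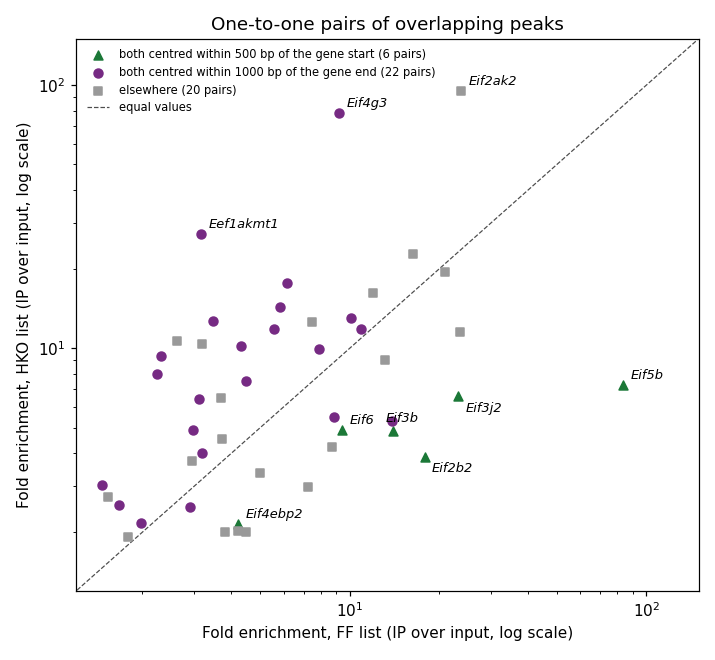
Fold enrichment in the HKO list (y axis, log scale) against the FF list (x axis, log scale) for the 48 pairs of peaks that overlapped one to one within a translation factor gene; the dashed line marks equal values. All 6 start pairs (triangles) lie below the line, and 19 of the 22 end pairs (circles) lie above it. Over all genes, the HKO fold was lower in 70.3% of start pairs and higher in 66.1% of end pairs.

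An end peak was one centred within 1000 bp of the annotated gene end. In the FF list 23 of 66 peaks were end peaks (34.8%, 24.5 to 46.9, beside 26.5% of all FF peaks), and in the HKO list 30 of 70 (42.9%, 31.9 to 54.5, beside 30.9% of all HKO peaks). The share over all HKO peaks lay just below the interval of the HKO list. With a window of 500 bp the shares on these genes were 21.2% and 28.6%. The shares over all peaks were not computed at 500 bp, so the comparison rests on the window of 1000 bp. Among list-specific peaks, 1 of 14 FF peaks (7.14%, 1.27 to 31.5) and 7 of 16 HKO peaks (43.8%, 23.1 to 66.8) were end peaks, where all list-specific peaks gave 17.0% and 33.5%.

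At gene ends, the HKO fold was higher than the FF fold in 19 of 22 pairs (86.4%), where 66.1% of end pairs over all genes had it higher. The 3 exceptions were Eef1g (2.91 in FF and 2.50 in HKO), the Eef1aknmt pair farther from the end (13.9 and 5.32) and Eif2b2 (8.87 and 5.49). Among the 19 is an Eif2ak2 pair (4.31 and 10.2) whose peaks also overlapped peaks listed for the pseudogene Gm6548. The median HKO over FF ratio at ends was 1.87 (1.38 over all genes). Over all 48 pairs the HKO fold was higher in 30 (62.5%), against 59.8% of all pairs.

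**Figure D3:**
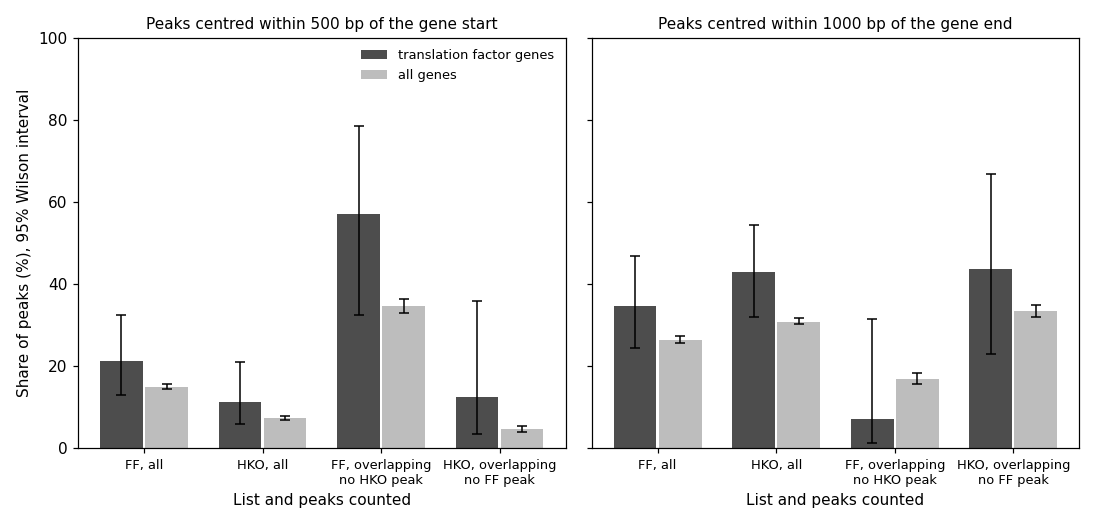
Share of peaks (y axis, percent; bars from 0, whiskers 95% Wilson intervals) centred within 500 bp of the gene start or 1000 bp of the gene end, for translation factor genes (dark) and all genes (light). At starts the FF bars stand above the HKO bars in each pair of groups, and the intervals of the translation factor genes are wide.

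Peaks of the eIF1 group lay on 4 genes, and Eif1 itself had none. Eif1a and Eif1ax encode near-identical copies of eIF1A, and reads could be split between them, so both are uncertain. Eif1a had 1 peak per list, chr18:46607710-46608578 in FF (fold 12.0, log10 q -199) and chr18:46607650-46608578 in HKO (fold 16.2, log10 q -193). Eif1ax had 1 FF peak, at chrX:159372238-159372387, 135 bp from the start (fold 3.13, log10 q -2.90), and 0 in HKO. Eif1b, a paralog of eIF1, had the same peak limits in both lists, with folds of 3.18 and 3.99. Eif1ad, a protein with an eIF1A domain, shared a peak with folds of 8.76 and 4.24 and had an FF start peak of 5.48.

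The eIF2 family supplies the tRNA carrier, its exchange factor eIF2B and the kinases of the integrated stress response. Of 14 genes on that list 11 had a peak, 8 in both lists, where 75.6% of all genes with a peak were in both. The α subunit gene Eif2s1, whose product is the protein that the stress kinases phosphorylate, had 2 peaks and both were in the HKO list: chr12:78884870-78885018 (fold 2.29, log10 q -3.87) and chr12:78885256-78885345 (fold 4.03, log10 q -3.48). Their centres lay 2066 bp and 1710 bp before the gene end.

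All 4 eIF2 kinase genes carried peaks, and 3 of them in both lists. Eif2ak2, which encodes the double-stranded RNA sensor PKR, had 4 FF and 5 HKO peaks, the most of any gene here. Its largest peak was chr17:78853312-78854268 in FF (fold 23.8, log10 q -53.3) and chr17:78853013-78854178 in HKO (fold 94.8, log10 q -81.5), and in the HKO list only 1.03% of all peaks had a higher fold. The other FF folds were 4.31, 9.79 and 13.2, and the other HKO folds 10.2, 13.2, 12.7 and 9.07. All 9 lay in the last 20% of the gene. Part of this gene shares its position with the pseudogene Gm6548, which has peaks of its own at the same coordinates, so 2 FF and 3 HKO peaks cannot be assigned to Eif2ak2 alone.

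Eif2ak3 encodes PERK, the kinase that senses stress in the endoplasmic reticulum, and had 3 FF and 2 HKO peaks. The FF peaks chr6:70892538-70892777 (fold 6.66) and chr6:70892986-70896939 (fold 9.66) both overlapped the HKO peak chr6:70892448-70896939 (fold 11.0). A further pair close to the gene end had folds of 10.1 and 13.0. Eif2ak1, the heme-regulated kinase HRI, had an end peak at chr5:143901788-143902208 in FF (fold 6.15, log10 q -104) and at chr5:143899221-143902268 in HKO (fold 17.8, log10 q -174). FF added the start peak chr5:143817822-143817972 (fold 4.54, log10 q -2.70), and HKO added chr5:143902597-143902717 (fold 9.62, log10 q -10.9), which lies inside the span of Aimp2 as well. Eif2ak4, the GCN2 kinase that senses uncharged tRNA, had 1 weak FF peak, at chr2:118388702-118388792, 164 bp from its start (fold 9.40, log10 q -1.52).

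Genes of eIF2B, the factor that reloads eIF2 with GTP, mostly had peaks in both lists. Eif2b1 had folds of 3.46 and 12.7 close to its end, Eif2b4 4.99 and 3.37, and Eif2b2 an end pair besides its start pair. Eif2b5, the catalytic subunit, had an FF peak at chr16:20509116-20509295 (fold 2.61, log10 q -2.46) and 0 in HKO. Eif2a, a factor that can deliver initiator tRNA without eIF2, had folds of 3.72 and 4.54. Eif2d, linked to reinitiation and recycling, had 16.4 in FF and 22.9 in HKO, at q-values near the weaker end of these genes (log10 q -3.39 and -5.27), inside the span of Rassf5.

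Among the subunits of eIF3, 9 of 14 genes had a peak, 6 of them in both lists and 3 in HKO alone. Over all genes with a peak, 75.6% were in both lists and 13.2% in HKO alone. With 9 genes, no difference from these shares was tested. Eif3a, the largest subunit, had 1 FF peak of 8 exon blocks and 1975 bp, chr19:60761834-60771026 (fold 6.75, log10 q -229). Under it the HKO list held 3 separate peaks, with folds of 3.90, 10.1 and 4.09. The number of peaks is therefore no measure of a difference for this gene. Eif3b, Eif3c, Eif3h and Eif3l had overlapping peaks, with folds of 2.94 and 3.72 for Eif3c, 1.98 and 2.17 for Eif3h, and 1.47 and 3.04 for Eif3l. Eif3b added an end peak in HKO alone (fold 1.95, log10 q -13.0).

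Eif3e, Eif3g and Eif3j1 had no FF peak. This set changed with the limits. At a q of 1e-05 or less, the Eif3 genes in HKO alone were Eif3c, Eif3g, Eif3j1 and Eif3l. At a fold of 2 or more they were Eif3e, Eif3h, Eif3j1 and Eif3l. Eif3e had an HKO peak at chr15:43250070-43250218, 104 bp before the end (fold 11.0, log10 q -4.13), and Eif3g one of 2 blocks at chr9:20895945-20896162 (fold 1.88, log10 q -5.50). Eif3j1 and Eif3j2 encode near-identical copies of the loosely bound subunit eIF3j, so a read could be placed on either. Eif3j2 carried the strong start pair given above (log10 q -152 and -74.4), and Eif3j1 carried HKO peaks at chr2:122028812-122041606 (fold 14.4, log10 q -2.81) and chr2:122052590-122052739 (fold 18.7, log10 q -5.67). The appearance of peaks on 1 copy in HKO alone is therefore uncertain.

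The eIF4 group, which binds the cap, had the most genes, 14 of its list of 16 with a peak and 10 in both lists. Of all genes with a peak, 75.6% were in both. Eif4e, the cap-binding protein, had an FF peak at chr3:138555417-138555597 (fold 3.70, log10 q -11.1) that lay under the HKO peak chr3:138553719-138555626 (fold 6.51, log10 q -17.9), and a weaker HKO peak nearby at chr3:138555746-138555836 (fold 2.63, log10 q -3.86). Eif4e2, a cap-binding protein that represses translation, shared the peak chr1:87237979-87238218 (folds 3.18 and 10.4). Its other 2 FF peaks (folds 11.7 at the start and 3.49) and its other HKO peak (fold 2.55) overlapped nothing, so that only 21.6% of its peak bases were common. Eif4e3, a further member of the family, had 1 FF peak at chr6:99626642-99626792 (fold 16.4, log10 q -3.39).

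The scaffold genes had end peaks in both lists except Eif4g2. Eif4g1 had one whose q was too small for the files to hold (log10 q at minus infinity), chr16:20692285-20692883 in FF (fold 10.9) and chr16:20692285-20692674 in HKO (fold 11.9). An internal pair had folds of 4.49 and 2.00, and HKO added chr16:20679384-20679773 (fold 2.39, log10 q -14.5). Eif4g3 had an end pair with folds of 9.23 and 78.1, where only 1.67% of HKO peaks were higher, and a pair whose centres lay 2277 bp and 2322 bp from the start, with 23.5 and 11.5. HKO added chr4:138126064-138126303 in the middle of the gene (fold 14.0, log10 q -5.73). Eif4g2, a homolog that lacks the eIF4E-binding site and serves cap-independent initiation, had a start peak in FF at chr7:111082850-111083030, 90 bp from the start (fold 2.86, log10 q -6.43), and 0 in HKO.

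The helicase genes Eif4a1 and Eif4a2 encode closely similar proteins, and reads could be split between them. Eif4a2 had overlapping peaks of low fold, 1.67 in FF and 2.55 in HKO, at log10 q of -19.9 and -60.0. Eif4a1 had 1 HKO peak at chr11:69666936-69667175 (fold 2.68, log10 q -13.4), 120 bp before its end, and 0 in FF. The helicase cofactors Eif4b and Eif4h had pairs in both lists, with folds of 4.21 and 2.02 and of 1.54 and 2.73 for Eif4b, and 3.80 and 2.01 for Eif4h.

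Genes for the eIF4E-binding proteins, which block cap-dependent initiation until mTORC1 phosphorylates them, showed 3 patterns. Eif4ebp1 had an end pair (folds 2.98 and 4.88, log10 q -66.7 and -138) and, in FF alone, the start peak chr8:27260357-27260535 (fold 3.57, log10 q -6.78). Eif4ebp2 had, besides its start pair, a pair with nearly equal folds of 20.9 and 19.5 (log10 q -272 and -253), centred 3194 bp and 3165 bp before its end. Eif4ebp3 was found in HKO alone, at chr18:36664148-36664266 (fold 2.74, log10 q -5.79) and chr18:36666147-36666324 (fold 17.8, log10 q -4.36). Eif4enif1, which carries eIF4E into the nucleus, had an end pair with folds of 7.90 and 9.94 and an FF peak near the start (fold 7.44) that lies in the spans of Sfi1 and Gm51877.

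Strong list-specific peaks were those that reached q 1e-05 and a fold of at least 2 without an overlap. They numbered 2 of 66 in FF (3.03%, 0.835 to 10.4, an interval that holds the 6.40% over all FF peaks). These lay on Eif4ebp1 and Eif4g2, and both were start peaks. In HKO they numbered 6 of 70 (8.57%, 3.99 to 17.5, near the 8.87% over all HKO peaks), on Eif2ak1, Eif3j1, Eif4a1, Eif4ebp3, Eif4g1 and Eif4g3. Of these 6, the Eif2ak1, Eif3j1 and Eif4a1 peaks were end peaks and the Eif4ebp3 peak a start peak. The Eif2ak1 peak is the one inside the span of Aimp2, and its gene of origin is therefore uncertain.

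Eif5b had 4 peaks in each list, and they overlapped pair by pair. The start pair was chr1:37998100-38017911 in FF and chr1:37998130-38017881 in HKO, each of 2 exon blocks, and in the FF list only 0.420% of peaks had a higher fold. The other pairs had folds of 7.46 and 12.6, of 7.25 and 2.97, and of 2.63 and 10.7. The longest, of 4 blocks, covered 1110 bp in FF and 1050 bp in HKO and lies in the span of Gm34448. Eif5, the protein that triggers GTP hydrolysis by eIF2, had the same peak limits in both lists (folds 1.79 and 1.93) and an FF start peak (fold 6.27). Eif6 had its start pair alone.

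Most peaks of the Eef1 and Eef2 groups, which include methyltransferase genes, were end peaks. In the Eef1 group 7 of 9 FF peaks and 7 of 7 HKO peaks were. In the Eef2 group 2 of 2 FF and 3 of 3 HKO peaks were. Over all peaks the shares were 26.5% in FF and 30.9% in HKO. In a gene as short as Eef1a1 the window of 1000 bp covers a large part of the span. Both groups had 0 start peaks, where all peaks gave 15.0% in FF and 7.38% in HKO. Eef1a1, the abundant carrier of aminoacyl-tRNA, had chr9:78478453-78478811 in FF (fold 2.24) and chr9:78478542-78478811 in HKO (fold 8.00), with log10 q at minus infinity in both. Eef2, the translocase, had chr10:81182002-81182509 (fold 4.47) and chr10:81181943-81182479 (fold 7.51), again at minus infinity. The subunits of the exchange factor that reloads eEF1A had 3 patterns. Eef1b2 had folds of 5.56 and 11.9, Eef1g the same limits in both lists with 2.91 and 2.50, and Eef1d had FF peaks alone, at chr15:75896263-75896676 (fold 1.98, log10 q -12.1) and chr15:75903569-75903718 (fold 12.5, log10 q -2.33).

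Among the methyltransferases that modify elongation factors, Eef1akmt1, Eef1akmt4, Eef1aknmt and Eef2kmt had peaks in both lists. Eef1akmt1, which methylates a lysine of eEF1A, had folds of 3.16 in FF and 27.2 in HKO, with nearly equal log10 q of -6.84 and -6.65. Eef1akmt4 had 3.10 and 6.45, inside the span of the readthrough gene Eef1akmt4-ece2. Eef1aknmt, which also modifies the amino terminus of eEF1A, had a second pair of 2.32 and 9.33 closer to the end. Eef2kmt, the enzyme for eEF2, had a pair with 5.81 and 14.4 and a further HKO peak of 11.0, all within the span of Alg1.

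Of 9 genes of these families known as mRNAs with a terminal oligopyrimidine tract, whose translation depends on mTORC1, 8 had a peak. Of all 70 family genes, 20 had no peak. The share of all RefSeq genes with a peak was not computed, for this count or those below. Eef1a1, Eef1b2, Eef1g, Eef2, Eif3h and Eif4b had peaks in both lists, Eef1d in FF alone and Eif3e in HKO alone. Eif3f had none. Genes of other steps of translation, in 5 lists of 57 genes, gave 51 with a peak, 38 in both lists, 6 in FF alone and 7 in HKO alone. These counts lie close to the shares over all genes with a peak (75.6% in both, 11.2% in FF alone and 13.2% in HKO alone). Their median folds were 6.66 and 8.41, between those of the initiation and elongation factors and of all peaks in each list. All 8 mitochondrial factor genes with a peak, among them Tufm (mitochondrial elongation factor Tu), had peaks in both. In the poly(A)-binding group, Pabpc1, Paip2b and Pan2 were in HKO alone and Paip2 in FF alone.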

How the data were processed

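Total liver RNA was measured as 4 libraries (IP and input, FF and HKO), grouped by title. The sources disagree on antibody (Synaptic Systems or Millipore) and library kit (NEBNext or NuGEN). The authors called peaks with exomePeak 2.16.0 at a q threshold of 0.05, per the series design text; fastp 0.19.11, BWA 0.7.12, HOMER 4.9.1 and GRCm38.p6 are named in the submitters' processing notes. The deposited lists hold a column named score, read here as the p-value of each peak because its log10 matched the separately listed log10 of p. The log10 of p and of q have columns of their own, handled as a score without fixed range in the deposited files, and the deposited fold enrichment is a ratio, IP over input. Own steps used pandas 2.3.3 and numpy 2.4.6 under Python 3.11.15, with figures by matplotlib 3.10.9, and the overlap step was checked on simulated data. Gene spans and start sequences are RefSeq's (GRCm38.p6), and all 50 genes matched. Described in full were genes in 1 list alone, those with the most peaks, the 5 highest folds of each list, genes with strong list-specific peaks, and core subunits and kinases. Members and gene lists were chosen with earlier results of these data known. Alternatives varied the q, the fold, the overlap and the windows. Parts of the transcript (coding or untranslated) and peak sequences were not analysed here.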

Additional observations from a re-analysis of the deposited data

How the results depend on the processing

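Of 64 alternatives over 13 results, 58 left a share within its 95% interval, or a count or median within 1.5 times, and 6 moved it further. The lower HKO fold at starts held in all pairs of each alternative that left any (5 to 7 pairs), and the higher HKO fold at ends in 84.2% to 86.4% of pairs. In the main setting, pairs over all genes gave 70.3% at starts and 66.1% at ends. At a q of 1e-05 or less, genes in FF alone numbered 3 and in HKO alone 8 (over all genes 706 and 1154), and the share of FF peaks overlapping an HKO peak was 87.8%. With a start window of 200 bp the share of start peaks was 10.6% in FF and 1.43% in HKO, and with an end window of 500 bp the share of end peaks was 21.2% in FF and 28.6% in HKO, which follows from the narrower windows. No start pair was left at 200 bp. At the narrower windows, shares over all peaks were not computed. Alternatives added after the data were seen were the nearest of any RefSeq start, the pair counts, and leaving out 7 genes with near-identical copies or an overlapping pseudogene. No paired analysis was possible because there was 1 pool per genotype, with no replicate number in the labels. Depth is unknown, so a peak missing from a list cannot be told from low coverage.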
